A study of Mus musculus with 12 samples.

Results

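The 10 genes studied here belong to the neutrophil lineage and include the receptor for granulocyte colony-stimulating factor (G-CSF). Followed through the regenerating mouse liver were Csf3r, Cxcr2, S100a8, S100a9, Retnlg, Ngp, Ltf, Camp, Mmp8 and Mmp9. They were chosen by gene symbol, and all 10 were found among the 13554 genes of the expression table. The table covers 12 liver RNA libraries from wild-type male C57Bl/6J mice, all taken on day 3 after partial hepatectomy, in 4 groups of 3. PH70 livers had a 70% resection and PH80 livers an 80% resection. PH80_HC livers had the 80% resection in an arm labelled HC, which the labels do not expand, and PH80_G+H livers had the 80% resection with G-CSF and HNF4a. Both agents went to the same animals, so their effects cannot be told apart, and the sources used here give neither their dose, route and timing nor the ages of the mice. No unoperated liver was analysed here. Whether the 3 libraries of each group are separate animals is not stated in the labels. A p-value here therefore measures the spread between libraries, which may be technical.

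Neutrophils are short-lived white blood cells made in the bone marrow. G-CSF, acting through its receptor Csf3r and the kinase and transcription factor chain of Jak and Stat proteins, drives the growth of their precursors and their release into blood. Maturing neutrophils make their granule proteins in waves: the secondary (specific) granule proteins such as Ngp, Ltf and Camp are transcribed in marrow precursors, and gelatinase granule proteins such as Mmp9 and the chemokine receptor Cxcr2 come later. In the liver, neutrophils arrive with the blood after injury or resection. In whole-liver RNA, fewer cells of a type and less RNA per cell cannot be told apart.

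Values below are normalised read values, that is reads divided by 1 size factor per library, and differences are on the log2(value + 1) scale. Reads per library ranged from 9.72 M to 44.5 M, so that a value of 0 allowed up to 1.48 in the deepest library and up to 6.69 in the shallowest, the value of 3 reads there. All 10 hepatocyte markers of a fixed list were in the table and led by Alb, so the tissue carried its labelled identity. The neutrophil genes were a small part of it: the summed value of the 10 genes ran from 155 in PH70 replicate 1 to 6152 in PH80 replicate 2, which was 0.0288% of all values in that library. Ly6g, the surface marker used to sort mouse neutrophils, was at 0 in 5 libraries and highest, at 14.95, in PH80 replicate 2.

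Per kilobase of transcript, S100a9 and S100a8 were the most abundant of the 10, with 12-library means of 1206 and 928. Retnlg followed at 133 and Csf3r at 29.8. Mmp9 (15.1), Camp (14.7) and Ngp (12.5) came next, then Cxcr2 (6.23), Mmp8 (6.12) and Ltf (2.09). Read support differed as widely. S100a9 had 8711 reads over all libraries and Csf3r 1403, while Ltf had 79, Camp 128, Ngp 210 and Mmp8 226. Ltf and Camp each had under 3 reads in 6 of 12 libraries, and Ngp and Mmp8 each in 4.

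Positions are given on the mouse genome build GRCm38 with the GENCODE M21 annotation. S100a8 (chr3:90668978-90670035, plus strand) and S100a9 (chr3:90692632-90695721, minus strand) are neighbours on chromosome 3. Ngp (chr9:110419747-110423012), Ltf (chr9:111019271-111042767) and Camp (chr9:109847379-109849617) lie near each other on chromosome 9, which also holds Mmp8 (chr9:7558456-7568485). Csf3r is at chr4:126024550-126044440, Mmp9 at chr2:164940780-164955850, Retnlg at chr16:48872621-48874496 and Cxcr2 at chr1:74153989-74161246. None of the 10 overlapped another annotated gene.

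The stretches in front of the start sites are shown for the 5 genes on which the values below turn, since their levels varied together across libraries to different degrees. They come from RefSeq promoters (GRCm38.p6) and are written 5′ to 3′ on the gene's strand, ending just before the first transcribed base of either annotation. Capitals mark matches, on either strand, to TTNNGNAA, a pattern of the C/EBP type, or to GAGGAA, the core bound by PU.1. C/EBP factors and PU.1 are the classical transcription factors of the granulocyte lineage.
S100a8, chr3:90668821-90668977, plus strand: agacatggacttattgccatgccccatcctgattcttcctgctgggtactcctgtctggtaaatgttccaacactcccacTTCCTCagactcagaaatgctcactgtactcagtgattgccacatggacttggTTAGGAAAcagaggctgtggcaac
S100a9, chr3:90695722-90695971, minus strand: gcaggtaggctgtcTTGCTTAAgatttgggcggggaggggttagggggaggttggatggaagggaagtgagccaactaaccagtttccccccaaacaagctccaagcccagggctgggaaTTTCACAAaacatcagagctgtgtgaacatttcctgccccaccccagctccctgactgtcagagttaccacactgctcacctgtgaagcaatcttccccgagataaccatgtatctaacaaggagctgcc
Retnlg, chr16:48872358-48872607, plus strand: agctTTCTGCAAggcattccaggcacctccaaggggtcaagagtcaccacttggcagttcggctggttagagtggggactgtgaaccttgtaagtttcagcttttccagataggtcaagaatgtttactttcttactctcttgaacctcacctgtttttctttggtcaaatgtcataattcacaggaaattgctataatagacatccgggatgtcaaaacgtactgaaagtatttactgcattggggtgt
Ngp, chr9:110419558-110419746, plus strand: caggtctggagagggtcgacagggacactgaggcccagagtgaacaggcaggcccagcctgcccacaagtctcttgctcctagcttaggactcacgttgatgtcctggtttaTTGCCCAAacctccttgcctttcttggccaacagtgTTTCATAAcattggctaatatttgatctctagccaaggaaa
Csf3r, chr4:126024409-126024549, plus strand: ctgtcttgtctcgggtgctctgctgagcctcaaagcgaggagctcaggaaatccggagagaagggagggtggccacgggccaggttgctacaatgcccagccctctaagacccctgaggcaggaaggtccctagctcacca
RefSeq had an entry for 9 of the 10 genes, Mmp9 being the exception. In the full 250 bases before the RefSeq start, the C/EBP-type pattern was found in 6 of the 9, against 36.8% of 32851 mouse promoters searched in the same way. The PU.1 core was found in 5 of the 9, against 23.3%. The STAT pattern TTCNNNGAA, which G-CSF signalling acts through, was in 0 of the 9, against 7.02%. A match is a string of letters and does not show binding. Among the stretches printed, S100a9 and Ngp each show a pair of C/EBP-type matches, S100a8 shows 1 of each kind and Csf3r shows none. The bases searched but not printed hold a PU.1 core in Csf3r (at -86 from the RefSeq start) and in S100a8 (-36). They also hold a C/EBP-type match in Ngp (-11). The stretches printed differ in length, from 141 bases for Csf3r to 250 for S100a9, so their matches do not compare the genes.

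**Figure D1:**
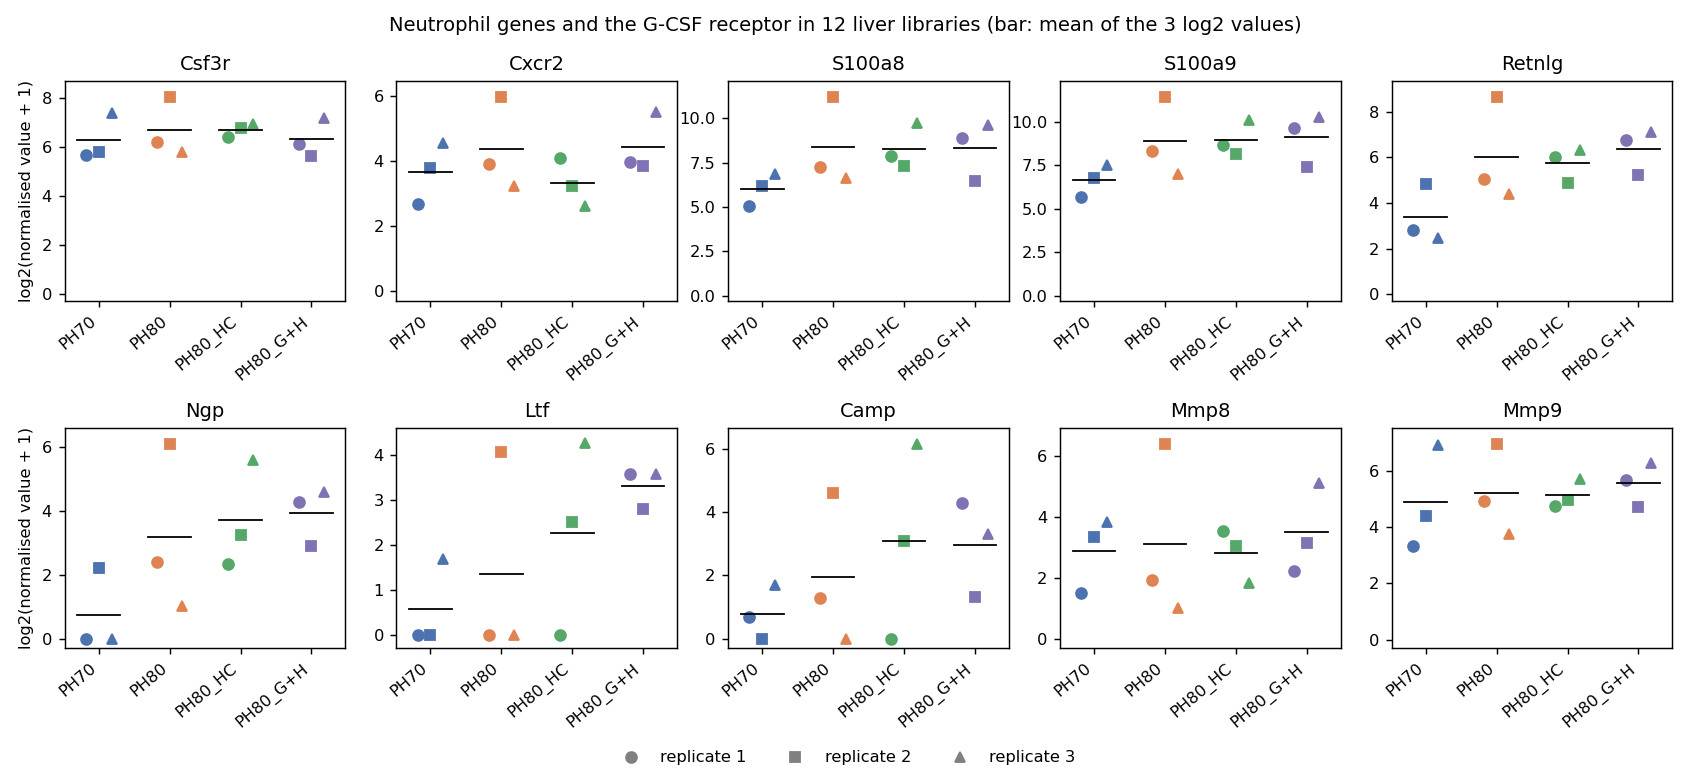
The 12 values of each gene, as log2(normalised value + 1), by group; each point is 1 library, its shape the replicate number, and the bar is the mean of the 3 log2 values. PH80 replicate 2 (square) is the highest library for 8 of the 10 genes, and Camp and Ltf are highest in PH80_HC replicate 3.

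The receptors varied least. Csf3r was 49.6, 54.8 and 167 in PH70, 73.1, 266 and 54.2 in PH80, 84.2, 109 and 123 in PH80_HC, and 68.1, 48.5 and 146 in PH80_G+H. The order of the group means was PH80 (131 ± 117, SD, n = 3), PH80_HC (105 ± 19.7), PH70 (90.6 ± 66.5) and PH80_G+H (87.6 ± 51.7). All 4 groups overlapped, and each step between neighbours in that order was smaller than the SD of at least 1 of them. Over the 12 libraries, the highest Csf3r value was 5.49 times the lowest.

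Cxcr2, the receptor through which neutrophils follow Cxcl1 and Cxcl2, was 5.45, 12.8 and 22.3 in PH70, 14.1, 62.1 and 8.33 in PH80, 16.2, 8.42 and 5.19 in PH80_HC, and 14.7, 13.4 and 44.9 in PH80_G+H. Its groups overlapped in all 6 comparisons. The high libraries were PH80 replicate 2 and PH80_G+H replicate 3, and the lowest was PH80_HC replicate 3.

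S100a8 and S100a9 form calprotectin, the abundant calcium- and zinc-binding protein of the neutrophil cytosol. S100a8 was 32.1, 71.3 and 114 in PH70, 150.5, 2369 and 99.0 in PH80, 230.0, 157 and 844 in PH80_HC, and 482, 88.6 and 776 in PH80_G+H. The highest library was 73.8 times the lowest, and every PH80_HC library stood above every PH70 library. S100a9 followed nearly the same order of libraries, with 50.2, 109.7 and 185 in PH70, 322, 2741 and 125 in PH80, 407, 282 and 1089.7 in PH80_HC, and 797, 165 and 1240.1 in PH80_G+H. The ratio of S100a9 to S100a8 reads stayed between 1.16 and 2.14 (median 1.61), while the ratio of S100a8 to Csf3r reads ran from 0.646 in PH70 replicate 1 to 8.90 in PH80 replicate 2.

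Retnlg encodes resistin-like gamma, a small secreted protein of mouse neutrophils. Its values were 6.05, 27.4 and 4.46 in PH70, 32.3, 401 and 19.8 in PH80, 64.0, 28.4 and 77.8 in PH80_HC, and 109, 36.1 and 138 in PH80_G+H. All 6 libraries of PH80_HC and PH80_G+H lay above all 3 of PH70. The gap was narrow for PH80_HC replicate 2, at 28.4 against 27.4 in PH70 replicate 2, a value of 15 reads. The PH80 group reached down to 19.8 and so overlapped PH70.

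The secondary granule genes were close to the detection limit in PH70. Ngp, neutrophilic granule protein, was 0, 3.66 and 0 in PH70, 4.22, 67.3 and 1.04 in PH80, 4.05, 8.42 and 46.7 in PH80_HC, and 18.4, 6.43 and 23.1 in PH80_G+H. Its PH70 values lay below those of PH80_HC and PH80_G+H, but the 0 of PH70 replicate 3 allowed up to 6.69, above the lowest library of either group. Ltf, the iron-binding lactoferrin, was 0, 0 and 2.23 in PH70, 0, 15.7 and 0 in PH80, 0, 4.74 and 18.2 in PH80_HC, and 11.04, 5.94 and 10.9 in PH80_G+H. PH80_G+H was the only group with no library at 0, and the counts behind its values were 6 to 16 reads. Camp, the antimicrobial cathelicidin, was 0.605, 0 and 2.23 in PH70, 1.41, 23.2 and 0 in PH80, 0, 7.37 and 70.05 in PH80_HC, and 18.4, 1.48 and 8.84 in PH80_G+H. Its groups overlapped in every comparison.

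The proteases were no more orderly. Mmp8, neutrophil collagenase, was 1.82, 9.14 and 13.4 in PH70, 2.81, 83.7 and 1.04 in PH80, 10.5, 7.37 and 2.59 in PH80_HC, and 3.68, 7.92 and 34.0 in PH80_G+H. Mmp9, gelatinase B, was 9.08, 20.1 and 120.4 in PH70, 29.5, 123 and 12.5 in PH80, 25.9, 30.0 and 51.9 in PH80_HC, and 49.7, 25.2 and 76.8 in PH80_G+H. One PH70 library thus held nearly as much Mmp9 as the highest PH80 library. The spread within groups was wide for all 10 genes: their pooled within-group SD on the log2 scale exceeded that of 96.6% of the 12570 genes tested for Csf3r, the lowest of the 10, and of 99.95% for Camp, the highest.

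The first comparison asks what G-CSF with HNF4a changed after the 80% resection. No difference passed the test for any of the 10 genes, and the libraries of PH80_G+H and PH80 overlapped for all of them, while 16.9% of all genes did not overlap in either direction. Csf3r differed by -0.37 on the log2 scale (SE 0.58, 95% interval -1.62 to 0.87), S100a8 differed by -0.03 (-2.31 to 2.25) and S100a9 by 0.19 (-1.89 to 2.27). The S100a8 and S100a9 intervals leave room for differences of over 1 log2 unit in both directions, and the Csf3r interval only for one below 0. Ltf had the largest difference, 1.96 (SE 1.19), with an adjusted p of 0.600 in limma. In limma with Benjamini-Hochberg adjustment, 0 of 10 were called, against 0.119% of all genes, and 0 had an unadjusted p under 0.05, against 10.5%. edgeR and DESeq2 also called 0 of 10, against 0.0875% and 1.62% of all genes. The direction depended on the model: 8 of 10 were above 0 in limma (median 0.34, all genes 0.00), but 1 of 10 in edgeR (median -0.58) and 2 of 10 in DESeq2 (median -0.56).

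The limma differences also depended on single libraries. The count above 0 was 4 of 10 without PH80 replicate 1 (median -0.12), 2 of 10 without PH80 replicate 3 (-0.49) and 3 of 10 without PH80_G+H replicate 3 (-0.22). Without PH80 replicate 2, all 10 differences between PH80_G+H and PH80 were above 0 in limma, with a median of 1.55. Of these, Ltf (3.32), Ngp (2.21), Mmp8 (2.02) and Retnlg (1.65) had an unadjusted p under 0.05, as did 7.34% of all genes. The smallest adjusted p was 0.555, so none was called. The 2 remaining PH80 libraries were low for Ltf, Ngp, Camp and Mmp8, with values of at most 4.22.

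The second comparison sets the 80% against the 70% resection. All 10 differences were above 0 in limma, with a median of 0.98 against 0.01 for all genes. Retnlg had the largest (2.66, SE 0.94, adjusted p = 0.130), then Ngp (2.43, SE 1.17, adjusted p = 0.249), S100a8 (2.34, SE 1.06, adjusted p = 0.221) and S100a9 (2.24, SE 0.97, adjusted p = 0.203). Csf3r differed by 0.40 (SE 0.58, adjusted p = 0.723). In limma 0 of 10 passed, against 3.82% of all genes, and edgeR called 0 as well, against 2.93%. Unadjusted p-values under 0.05 were found for 3 genes in limma (21.4% of all genes) and for 4 each in edgeR (20.8%) and DESeq2 (21.9%).

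DESeq2 on the recovered reads called 3 of the 10 genes in this comparison, against 7.58% of all genes: Retnlg (adjusted p = 0.0256), S100a8 (0.0412) and S100a9 (0.0481). All 3 calls depended on PH80 replicate 2. Without it DESeq2 called 0 of 10, against 4.66% of all genes, the limma median was -0.13, and Camp, Csf3r, Cxcr2, Ltf, Mmp8 and Mmp9 had the other sign. The smallest limma adjusted p was then 0.348. The libraries of PH80 and PH70 overlapped for all 10 genes, while 27% of all genes did not overlap.

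**Figure D2:**
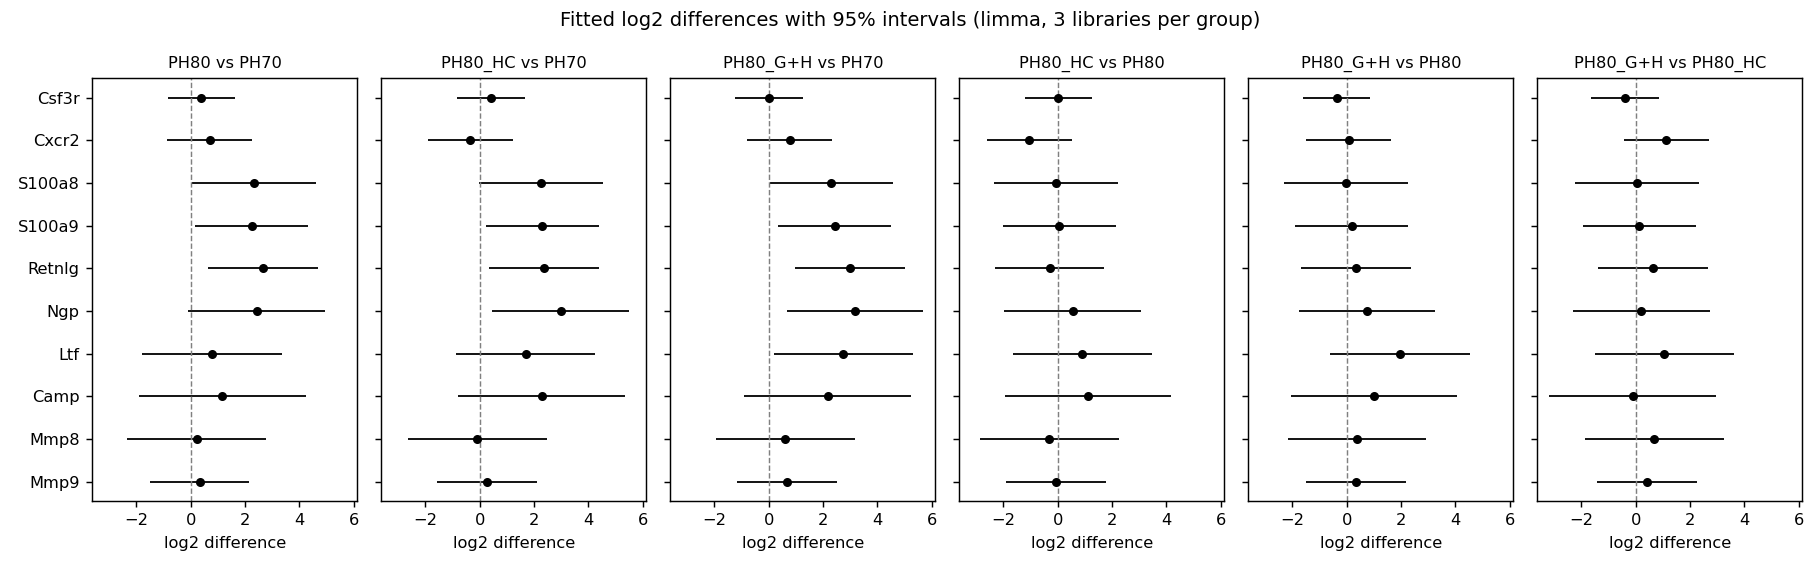
Fitted log2 differences (points) with 95% intervals (lines) for each gene in the 6 comparisons, from limma with 3 libraries per group; the dashed line marks 0. The intervals of Retnlg and S100a9 lie above 0 in all 3 comparisons with PH70, and no interval in the comparisons among the 80% groups leaves 0 out.

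PH80_HC stood above PH70 without overlap for 4 of the 10 genes, Retnlg, S100a8, S100a9 and Ngp, against 7.96% of all genes in that direction. With the trend with transcript length and GC content removed, these groups overlapped for all 4 genes. The lowest PH80_HC deviation from the gene's mean was then -0.51 for Retnlg, -0.48 for S100a8, -0.30 for S100a9 and -0.64 for Ngp. The highest in PH70 was -0.10, 0.12, 0.10 and -0.53. Without that removal, the differences were 2.98 for Ngp (adjusted p = 0.273), 2.37 for Retnlg (0.276), 2.30 for S100a9 (0.292) and 2.27 for S100a8 (0.316) in limma. None of the 10 passed, against 0.231% of all genes. edgeR and DESeq2 called 0, against 0.119% and 2.01%. With unadjusted p-values, limma had 3 of 10 under 0.05, against 15.8% of all genes, and edgeR and DESeq2 had 4 each, against 15.3% and 16.6%. Against PH80, PH80_HC overlapped for all 10 genes, while 15.6% of all genes did not overlap: 5 of 10 were above 0, the median was -0.02, and Cxcr2 (-1.05) and Camp (1.12) were at the ends of the range in limma. In edgeR and DESeq2, 2 of 10 were above 0 (medians -0.80 and -0.74). In limma the count was 9 of 10 without PH80 replicate 2 (median 1.32), 2 of 10 without PH80 replicate 3 (-0.86), 3 of 10 without PH80 replicate 1 (-0.22), 1 of 10 without PH80_HC replicate 3 (-0.40), and 7 of 10 without PH80_HC replicate 1 (0.17) or replicate 2 (0.28). Here limma, edgeR and DESeq2 called 0 of 10, against 0.891%, 0.923% and 4.21% of all genes, with 2 of the 10 left without an adjusted p by DESeq2. None had an unadjusted p under 0.05, against 14.3% of all genes in limma.

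PH80_G+H stood above PH70 without overlap for 3 of 10 genes, Retnlg, Ngp and Ltf, against 5.95% of all genes. For Ngp and Ltf the value of 3 reads in PH70 replicate 3, 6.69, lay above the lowest PH80_G+H value (6.43 and 5.94), so at this depth only Retnlg separated beyond that floor. All 10 differences were above 0 in limma, with a median of 2.24. The count was 7 of 10 without PH70 replicate 1 (median 1.88), 8 without PH80_G+H replicate 3 (1.76) and 9 without PH70 replicate 2 (2.08). Of the other neutrophil genes listed below, 6 of 10 granule genes and 15 of 22 mature genes were above 0 (medians 0.10 and 0.17). Ngp differed by 3.18 (adjusted p = 0.662), Retnlg by 3.00 (0.513), Ltf by 2.75 (0.775), S100a9 by 2.43 (0.725) and S100a8 by 2.31 (0.833), all in limma. Unadjusted p-values were under 0.05 for these 5, against 5.97% of all genes, for 5 in edgeR (5.89%) and for 4 in DESeq2 (6.53%). After adjustment 0 of 10 were called by limma and by edgeR, where 0.00796% of all genes were in either, and 0 by DESeq2, against 0.525%. Csf3r, the receptor of the agent given, differed by 0.03 (SE 0.58). This comparison and those of PH80 and PH80_HC with PH70 share the 3 PH70 libraries, so their like values are not independent.

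PH80_G+H and PH80_HC overlapped for all 10 genes, while 17.1% of all genes did not overlap. The median difference of the 10 was 0.31, and 8 of 10 were above 0 in limma. The count was 4 of 10 without PH80_G+H replicate 3 (median -0.13) or PH80_HC replicate 1 (-0.05). It was 5 without PH80_HC replicate 2 and 6 without PH80_G+H replicate 1. Without PH80_G+H replicate 2 or PH80_HC replicate 3 it was 9. Of the other neutrophil genes listed below, 1 of 10 granule genes and 8 of 22 mature genes were above 0 (medians -0.91 and -0.07). In this comparison limma, edgeR and DESeq2 called 0 of 10, against 0.255%, 0.374% and 2.41% of all genes. None had an unadjusted p under 0.05, against 13.6% of all genes in limma. Over the 4 groups together the limma F test called 0 of 10, against 1.85% of all genes. Only Retnlg had an unadjusted p under 0.05 there (0.0260, adjusted p = 0.204), against 19.1% of all genes. edgeR had 2 such genes (19.1% of all genes) and DESeq2 had 1 (23.1%), with 0 of 10 called by either, against 1.71% and 9.76% of all genes. With PH80 replicate 2 left out, DESeq2 called Retnlg (adjusted p = 0.0242) and Ngp (0.0342) between PH80_HC and PH70, against 2.78% of all genes. It also called Retnlg (0.00136) between PH80_G+H and PH70, against 0.74%, and both genes over the 4 groups, against 7.77%. edgeR called 0 of 10 in all of these without that library.

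**Figure D3:**
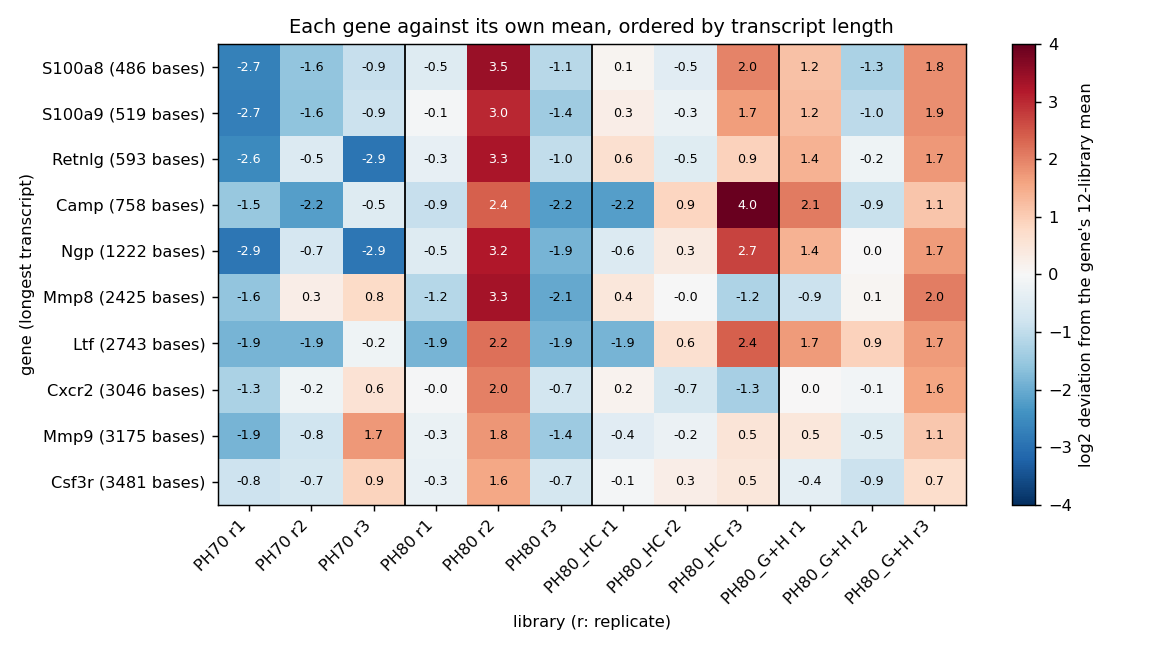
The log2 deviation of each gene (rows, ordered by transcript length in bases) from its own 12-library mean, in each library (columns, grouped by vertical lines); red is above and blue below the mean. PH80 replicate 2 and PH80_G+H replicate 3 are above the mean for all 10 genes, and PH70 replicate 1, PH80 replicate 1 and PH80 replicate 3 for none.

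Most of the variation was between libraries of 1 group and was shared by the genes. The mean log2 deviation of the 10 genes was 2.62 in PH80 replicate 2, with all 10 above their own mean, and -0.60 and -1.44 in the other PH80 libraries. In PH80_G+H it was 0.82, -0.38 and 1.54, and replicate 3 again had all 10 above their mean. In PH80_HC it was -0.36, 0.00 and 1.20, and in PH70 -1.98, -0.99 and -0.43. Across the 12 libraries the correlation between pairs of the 10 genes had a median of 0.70 over 45 pairs, from 0.18 for Camp with Cxcr2 to 0.99 for S100a8 with S100a9. Without PH80 replicate 2 the median was 0.58 and the lowest -0.07. The points share libraries and their normalisation, and these values are descriptions.

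Csf3r was closest to Mmp9 (r = 0.88) and least like Retnlg (r = 0.46). Both Csf3r and Mmp9 were high in PH70 replicate 3, by 0.89 and 1.72 log2 units over their means, while Retnlg was 2.93 below its mean there. In that library, the shallowest, levels increased with transcript length over all genes (slope 0.23 log2 per doubling of length) and the 81 ribosomal protein genes were 1.12 log2 units low. After the trend with transcript length and GC content was taken out, those deviations were 0.80, 1.66 and -2.07. PH80_HC replicate 3 had the opposite trend (slope -0.28). There S100a8 was 1.97 above its mean before and 0.85 after, and Camp 3.96 before and 3.08 after. The part of these library trends in the group differences was not tested further than by removing them, which called 0 of 10 genes in each of the 6 comparisons.

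**Figure D4:**
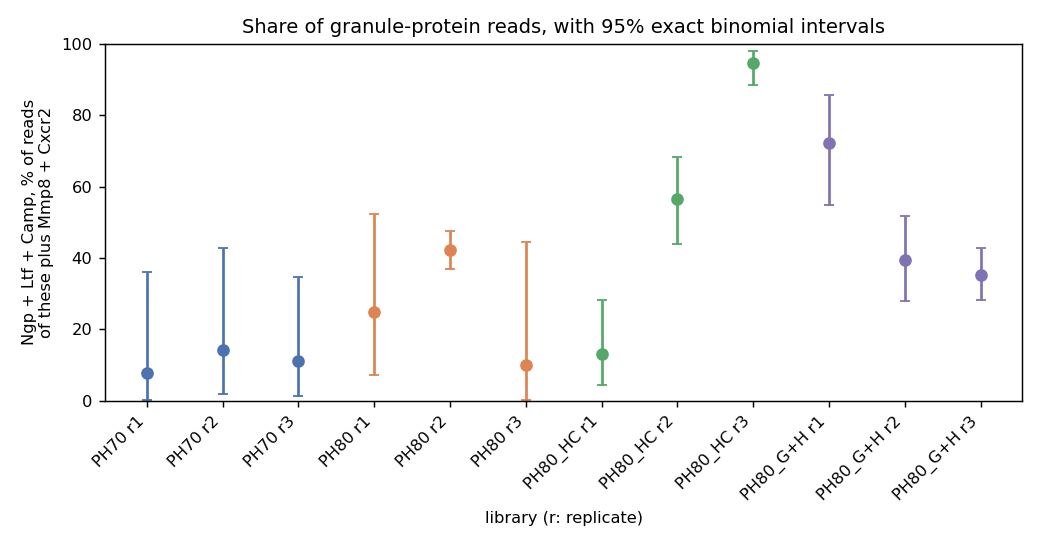
Reads of Ngp, Ltf and Camp as a percent of the reads of these 3 plus Mmp8 and Cxcr2, per library (points), with 95% exact binomial intervals (bars). PH80_HC replicate 3 is at 94.5% and PH80 replicate 2 at 42.1%, although both hold high S100a8.

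The neutrophil genes did not keep 1 ratio to each other. In PH80_HC replicate 3, Camp, Ngp and Ltf were 3.96, 2.69 and 2.39 log2 units above their means, while Mmp8 and Cxcr2 were 1.24 and 1.32 below. This contrast was chosen after the values were seen. Counted in reads, Ngp, Ltf and Camp made up 104 of 110 reads of the 5 genes there, or 94.5% (95% exact interval 88.5% to 98.0%). PH80 replicate 2, the library richest in neutrophil RNA, had 42.1% (36.8% to 47.6%). Within PH80_HC the other libraries had 13.2% (4.41% to 28.1%) and 56.5% (44.0% to 68.4%), so the 3 intervals did not overlap. In PH80_G+H the shares were 72.2%, 39.4% and 35.2%, and in PH70 7.69%, 14.3% and 11.1% with at most 2 reads of the granule genes. The remaining PH80 libraries had 25.0% and 10%. The intervals cover counting error only.

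Among 12278 genes outside the 10, those whose profile over the 12 libraries was most like the mean of the 10 were Treml2 (r = 0.88, rho = 0.80), Pglyrp1 (0.87, 0.91), Clec4d (0.86, 0.79), Trem1 (0.86, 0.72), Stfa2l1 (0.85, 0.79), Tmem154 (0.85, 0.78), Asprv1 (0.85, 0.94) and Pi16 (0.84, 0.80). Pglyrp1 is a peptidoglycan-binding granule protein, and Trem1 and Clec4d are receptors of myeloid cells. Without the 2 libraries farthest from the median, PH80 replicate 2 and PH80_G+H replicate 3, r was 0.85 for Treml2, 0.87 for Pglyrp1 and 0.69 for Trem1. For Csf3r alone, the closest were Relt (r = 0.95, rho = 0.93), Il1r2 (0.87, 0.83), Emb (0.87, 0.88), Cd33 (0.86, 0.90) and Cd300lf (0.86, 0.85). Il1r2 is the decoy receptor for interleukin-1. Relt kept r = 0.90 without PH80 replicate 2 and PH70 replicate 3.

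Of 19 further granule genes, 12 were in the table and 10 were tested. Hp and Lcn2, with the highest values, are also made by hepatocytes in the acute phase response and stand on that list too. Prtn3, the neutrophil serine protease proteinase 3, was the 1 gene called by limma: it rose from 828 ± 389 (SD, n = 3) in PH70 to 4162 ± 2130 in PH80_HC, a log2 difference of 2.31 (adjusted p = 0.0435 in limma), and the call was lost in 10 of 26 alternatives. Elane and Mpo, the primary granule genes made at the same stage as Prtn3, reached at most 55.8 and 29.8, both in PH80_HC replicate 3, and Mpo was too low to be tested. The 12-library mean was 2171 for Prtn3, against 18.7 for Elane and 5.70 for Mpo. Which cells the Prtn3 reads came from was not tested. edgeR called 0 granule genes. DESeq2 called Elane, Hp and Prtn3 between PH80_HC and PH70 (2.01% of all genes) and Lcn2 and Prtn3 between PH80 and PH70 (7.58%). It also called Hp and Prtn3 between PH80_G+H and PH80_HC (2.41%) and Anxa1 between PH80_HC and PH80 (4.21%). Of 27 other mature neutrophil genes, 24 were in the table and 22 tested. None was called in any comparison by limma or edgeR. At an unadjusted p under 0.05, limma had 0 to 7 of them and edgeR 1 to 8. The 7 in limma were all higher in PH80_HC than in PH70, against 15.8% of all genes in either direction. The 8 in edgeR were between PH80 and PH70, against 20.8%. DESeq2 called 2, Asprv1 between PH80 and PH70 (7.58% of all genes) and Acod1 between PH80_G+H and PH80 (1.62%). Those with the highest values were Wfdc21 and G0s2, with 12-library means of 30931 and 1153. Wfdc21 was never below 10123, while the 10 neutrophil genes together reached at most 6152. G0s2 was lowest, at 357, in PH80 replicate 2, where the 10 genes had their highest sum. Which cells the reads of Wfdc21 and G0s2 came from was not tested. Between PH80_G+H and PH80, 1 of 10 granule genes and 5 of 22 mature neutrophil genes were above 0 in limma, with medians of -0.49 and -0.47. Without PH80 replicate 2 these were 3 of 10 and 11 of 22, with medians of -0.16 and 0.00, and without PH80_G+H replicate 2 the mature list had 10 of 22 above 0 (median -0.09). Without PH80 replicate 3 the medians were -0.76 and -0.75.

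Of 29 genes of G-CSF receptor signalling, 27 were tested, and those called by limma and reported here are Cebpa and Stat5b. Cebpa, a transcription factor of hepatocytes and of granulocyte precursors, fell from 6733 ± 91.5 in PH70 to 2748 ± 922 in PH80 (SD, n = 3), by 1.36 on the log2 scale (adjusted p = 0.00814 in limma). That call was lost in 1 of 26 alternatives, the one without PH70 replicate 2. Stat5b fell from 1196 ± 123 to 666 ± 93.3 (log2 difference -0.85, adjusted p = 0.0497 in limma), a call lost in 17 of 26. In that comparison edgeR called Cebpa, and DESeq2 called Cebpa, Pim1, Stat5a and Stat5b. DESeq2 further called Cebpa, Cish and Pim1 between PH80_HC and PH70, and Cish in both other comparisons of PH80_HC.

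Stat3, the main STAT of Csf3r, did not pass between PH80_G+H and PH80: it was 2756, 3661 and 2494 in PH80_G+H and 2028, 3027 and 2068 in PH80 (log2 difference 0.33, SE 0.26, adjusted p = 0.678 in limma). Socs3, the feedback inhibitor of the receptor, was 416, 523 and 596 in PH80_G+H against 242, 1106 and 280.2 in PH80 (0.26, SE 0.49, adjusted p = 0.880 in limma). These genes are expressed by hepatocytes as well, and which cells their reads came from was not tested. Csf3 and Gfi1 were not analysed here.

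Among genes that bring neutrophils into tissue, none was called in any comparison by limma, edgeR or DESeq2, neither among 12 tested chemokine and retention genes nor among 14 tested adhesion genes. Cxcl12 and Cxcl1 had the highest values of the first list, with means of 5117 and 911, and Itgb1 and Icam1 of the second, with 4352 and 634. At an unadjusted p under 0.05, limma had 2 of 12 chemokine genes lower in PH80_G+H than in PH80, against 10.5% of all genes in either direction. It had 2 higher in PH80_HC than in PH70, against 15.8%. A further 1 was higher in PH80_HC than in PH80 (14.3%), and 1 was lower in PH80_G+H than in PH80_HC (13.6%). Of 13 other S100 genes and S100 receptors, S100a6 rose from 154 ± 16.4 in PH70 to 369 ± 134 in PH80 (SD, n = 3), by 1.18 (adjusted p = 0.0497 in limma). This call was lost in 17 of 26 alternatives. edgeR called S100a6 there too. DESeq2 made 9 calls on this list over the 6 comparisons, with S100a6 lower in PH80_G+H than in PH80 among them. Of 13 tested metalloproteinases and protease inhibitors besides Mmp8 and Mmp9, only the hepatocyte inhibitor Mug1 was called by limma and edgeR. It was 29002, 29421 and 28518 in PH70, 8826, 12441 and 10445 in PH80, 37973, 35125 and 35330 in PH80_HC, and 21713, 21415 and 18339 in PH80_G+H. It fell by 1.47 between PH70 and PH80 and was 1.79 higher in PH80_HC than in PH80 on the log2 scale, and edgeR and DESeq2 called both differences. DESeq2 made 10 calls on this list over the 6 comparisons: 4 of Mug1, the others being PH80_G+H against PH80 and against PH80_HC, 2 each of Mmp12 and Mmp23, and 1 each of Timp1 and Timp3.

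Markers of other cell types were summed in the same libraries. For the 17 Kupffer cell and macrophage markers, all tested, the summed value was 15116 to 29878 in PH70, 19472 to 38449 in PH80, 29806 to 46993 in PH80_HC and 18368 to 24169 in PH80_G+H. DESeq2 called 5 of them between PH80_HC and PH70 (2.01% of all genes), 4 between PH80_G+H and PH80_HC (2.41%) and 1 between PH80 and PH70 (7.58%). In limma 14 of 17 were above 0 in the first and in the last of these comparisons, and 1 of 17 in the other. For 12 lymphocyte markers in the table the summed value was 183 to 235 in PH70, 143 to 392 in PH80, 241 to 786 in PH80_HC and 118 to 288 in PH80_G+H. DESeq2 called 5 of these (Cd3d, Cd3g, Cd8a, Gzma and Nkg7) both between PH80_HC and PH70 (2.01% of all genes) and between PH80_G+H and PH80_HC (2.41%). It called Nkg7 between PH80_HC and PH80 (4.21%). In limma 10, 2 and 11 of 12 were above 0 in these comparisons, in the same order. For 11 monocyte markers the summed value was 15519 to 26128 in PH70, 14330 to 23449 in PH80, 16621 to 36897 in PH80_HC and 21271 to 35752 in PH80_G+H. Fn1, which hepatocytes also make, led that sum. Platelet markers, of which 9 were in the table, summed to 372 to 571, 425 to 960, 599 to 1038 and 461 to 598. Eosinophil, basophil and mast cell markers (4 of 10 in the table) stayed between 113 and 239 in all libraries, and erythroid markers (4 of 11 in the table) between 965 and 4067. The 13 acute phase genes of hepatocytes summed to 418410 to 689218 in PH70, 577798 to 1519800 in PH80, 480640 to 3070190 in PH80_HC and 502621 to 988966 in PH80_G+H. The lowest library of each 80% group thus lay within the PH70 range. Of these genes Crp was called, 1.09 higher in PH80_HC than in PH80 (adjusted p = 0.0421 in limma, lost in 15 of 26 alternatives). Neither limma nor edgeR called any marker of the Kupffer cell, lymphocyte, monocyte, platelet, eosinophil, erythroid or hepatocyte lists in the 6 comparisons. The most at an unadjusted p under 0.05 were 10 of 17 Kupffer cell markers in limma and 11 in edgeR, between PH80_HC and PH70. All 10 in limma were higher in PH80_HC. The shares of all genes there were 15.8% in limma and 15.3% in edgeR. DESeq2 made 6 calls over the 6 comparisons among the erythroid markers, 3 among the monocyte markers, 1 among the hepatocyte markers and 0 among the platelet and the eosinophil, basophil and mast cell markers. Of all genes it called from 0.525% (PH80_G+H against PH70) to 7.58% (PH80 against PH70) in a comparison. The part of these cell types in the values of the 10 genes was not tested.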

How the data were processed

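Messenger RNA was measured in 12 mouse liver libraries (TruSeq Stranded mRNA kit, 100 ng of total RNA, per the labels' protocols). Per the submitters' processing notes, the genome was GRCm38 (mm10) and DESeq2 served for processing; aligner, counter and annotation: not given in the sources used here. As to unit, the deposited values are a normalised signal: 100% were whole multiples of 1 read within 0.01, that is reads divided by 1 size factor per library.

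Tests covered the 12570 genes that reached a value of 10 in 3 or more libraries (all 10 neutrophil genes among them). Limma 3.58.1 (R 4.3.3) was fitted to log2(value + 1) in all 12 libraries with group as the factor and an intensity trend; p-values were two-sided, adjusted by Benjamini-Hochberg over all tested genes, with a threshold of 0.05. Fold changes on this scale understate those of low genes. edgeR 4.0.16 and DESeq2 1.42.0 were run on the recovered reads as alternatives, and scripts were tested on simulated data. Depth ranged from 9.72 M to 44.5 M reads.

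The 10 genes and 15 other gene lists were chosen with earlier results of these data known. Named are all 10, and of each list the called genes and those with the highest values; Ly6g, Lcn2, Elane, Mpo, Stat3, Socs3 and the granule share were added after their values were seen. Similar profiles were ranked by Pearson's r among genes with a mean of at least 10. Alternatives covered scaling, pseudocount (0.5 and 5), filter, variance trend, samples in the fit, tool, a replicate block and leaving out each library. A result of the G-CSF signalling list is not reported here.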

Additional observations from a re-analysis of the deposited data

How the results depend on the processing

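Of 181 counts of neutrophil genes called under the alternatives (26 per comparison, 25 for the F test), 177 stayed at 0, including every limma fit that left out 1 library (range 0 to 0). The others came from DESeq2: 3 between PH80 and PH70, and, without PH80 replicate 2, 2 between PH80_HC and PH70, 1 between PH80_G+H and PH70 and 2 over the 4 groups. Apart from DESeq2 the smallest adjusted p of any of the 10 genes was 0.0627 (Retnlg, PH80 against PH70, without PH80 replicate 3). Of 1524 recomputed differences of single genes, 137 had the other sign and 85 moved by over 1 SD. Scaling to equal totals shifted library medians by -0.37 to 0.16 log2 units and turned the sign of 4 differences. A mean of at least 50 left 4 of the 10 genes to test.

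No pairing by replicate number was visible. Of 18 same-number pairs, 6 had a correlation of deviations over 0.1 (median 0.03, against -0.008 for 36 other pairs). Only 1 of 12 libraries correlated best with a same-number library. Low correlations cannot show that the libraries were unpaired, and the labels do not say. With the replicate number as a block, limma called 0 of the 10 genes in every comparison, and 293 genes in all between PH80 and PH70, against 480 without the block.

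The alternatives of removing the trend with transcript length and GC content and leaving PH80 replicate 2 out of edgeR and DESeq2, were chosen after seeing the data. Depth limits Ltf, Camp, Ngp and Mmp8, which had under 3 reads in 4 to 6 of 12 libraries.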
